A study of Mus musculus with 6 samples.

Results

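The genes described here are 10 chemokine genes that a QuantSeq table of primary mouse hepatocytes lists by the symbols Ccl2, Ccl5, Ccl7, Ccl9, Ccl20, Ccl25, Cx3cl1, Cxcl12, Cxcl14 and Cxcl16. They were chosen by name, as a set of CC chemokines and of chemokines with homeostatic roles, and they are 10 of the table's 23282 rows. Other chemokine ligands, among them the CC genes Ccl3 and Ccl6, are given only beside them. Hepatocytes were prepared by collagenase perfusion of livers from C57BL/6N mice, plated, and then kept for 24 h in fresh medium, either untreated (control, 3 samples) or treated with recombinant IL-1β (IL-1β, 3 samples). The sample labels name neither the dose of IL-1β nor the age, sex or number of the mice, and do not say whether the samples of a group came from separate animals, so the p-values measure the spread between these 6 samples, which may be technical. QuantSeq reads tags near the 3′ end of mRNA, and the table gives the number of reads on each gene.

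Chemokines are small secreted proteins that direct the migration of leukocytes through G protein-coupled receptors. They are classed by the spacing of the first conserved cysteines of the mature protein, which are adjacent in CC chemokines, 1 residue apart in CXC chemokines and 3 residues apart in CX3C chemokines. Inflammatory members such as Ccl2 are known to be switched on by cytokines that act through NF-κB, IL-1β among them, whereas homeostatic members such as Cxcl12 are made constantly and keep cells in their niches. Cx3cl1 and Cxcl16 differ from the rest in being made as membrane-anchored proteins, from which proteases of the ADAM family release the chemokine.

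The coding sequence around these cysteines shows to which class each gene belongs, and was read from the GENCODE transcripts on GRCm38. Each line runs 5′ to 3′, with the cysteine codons in capitals. In 6 genes the codons are adjacent, as codons 34 and 35 of Ccl2 or 33 and 34 of Ccl5, Ccl7 and Ccl20.
Ccl2: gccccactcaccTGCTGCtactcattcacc
Ccl5: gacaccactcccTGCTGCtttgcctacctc
Ccl7: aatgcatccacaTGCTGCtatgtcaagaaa
Ccl9: gactcttcagatTGCTGCctgtcctataac
Ccl20: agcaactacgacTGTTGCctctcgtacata
Ccl25: gcctttgaagacTGCTGCctgggttaccag
In Cxcl12, Cxcl14 and Cxcl16, 1 codon stands between them, and in Cx3cl1 3 codons do.
Cxcl12: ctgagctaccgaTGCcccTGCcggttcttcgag
Cxcl14: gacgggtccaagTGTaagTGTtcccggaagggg
Cxcl16: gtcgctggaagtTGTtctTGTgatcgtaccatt
Cx3cl1: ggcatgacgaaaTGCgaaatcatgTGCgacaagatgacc
The CC genes Ccl2, Ccl7, Ccl5 and Ccl9 lie on chromosome 11 with Cxcl16, and the other members are spread over 4 further chromosomes: Ccl20 on chromosome 1, Cxcl12 on 6, Ccl25 and Cx3cl1 on 8, and Cxcl14 on 13. In the last 500 bases of the annotated transcripts, 0% of the windows of 75 bases, the read length, occurred in another gene for any of the 10 members. The share that occurred in another gene's transcripts on the opposite strand was also 0% for each.

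Libraries held 9538741 to 11105408 counts, and levels are given as CPM, the counts divided by each library's TMM-normalized size on a common scale, at which 3 counts in a library are worth 0.269 to 0.321 CPM. CPM of 3′ tags is not divided by transcript length, and where counts of different genes are set side by side below, they are counts of reads, not levels per length. Of the 10 members, 8 had enough counts for edgeR's quasi-likelihood test, and Cx3cl1 and Cxcl14 did not. After IL-1β, 5 of the 8 rose (Ccl2, Ccl5, Ccl7, Ccl20 and Cxcl16), 1 fell (Cxcl12), and 2 did not pass an adjusted p of 0.05 (Ccl9 and Ccl25), the adjustment being by Benjamini-Hochberg over the 11657 genes tested. Over all these genes, 6.97% were called higher and 6.44% lower, 812 and 751 genes, and scaling by total counts alone gave 662 and 1008. No IL-1β value overlapped a control value in 6 of the 8 members, against 28.2% of all genes tested. The median log2 fold change of the 8 was 1.34, beside -0.002 over all genes tested.

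**Figure D1:**
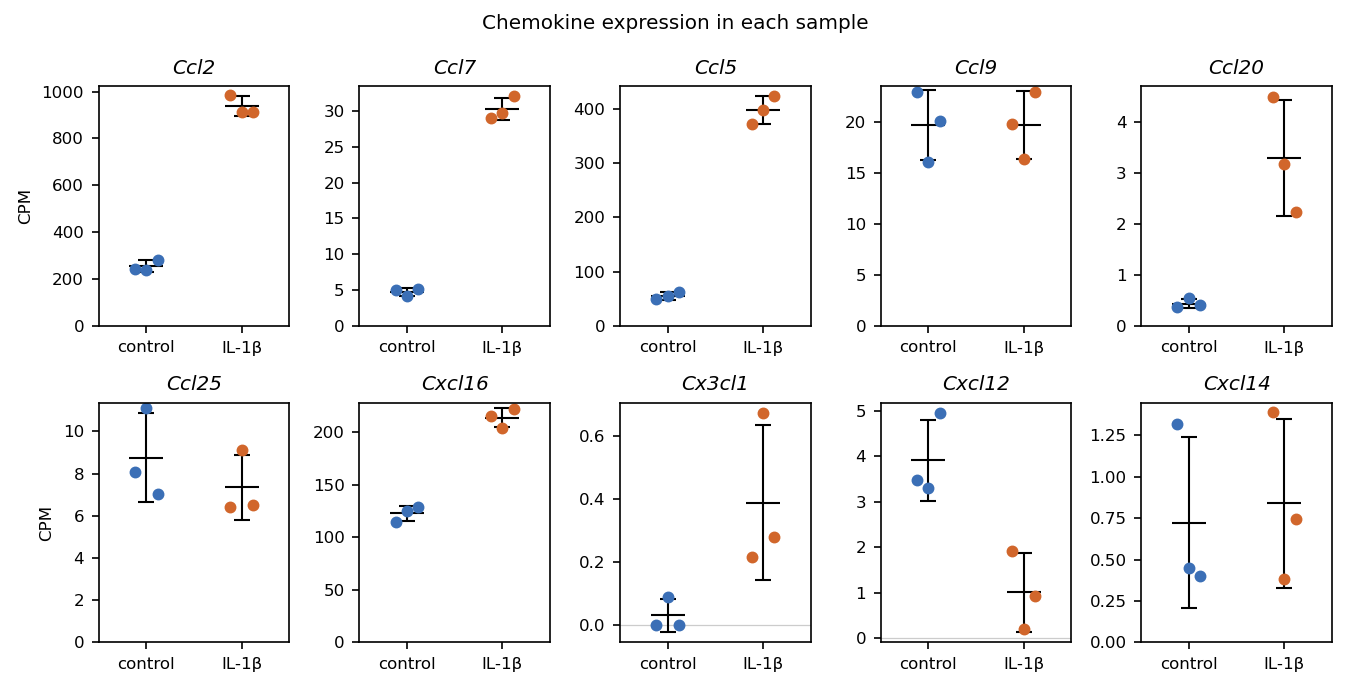
CPM of each chemokine gene in the 3 control (blue) and 3 IL-1β (orange) samples, each panel on its own linear axis that starts at or just below 0, with the group mean and SD as black bars. The groups are apart in Ccl2, Ccl7, Ccl5, Ccl20 and Cxcl16, with IL-1β higher, and in Cxcl12, with IL-1β lower, while they overlap in Ccl9, Ccl25 and Cxcl14. In Cx3cl1 all values are below 1 CPM.

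Ccl2, the ligand of CCR2 that draws monocytes out of the blood, had the most counts of the 10 genes in every sample. It lies on the plus strand of chromosome 11 from 82035577 to 82037452 on GRCm38. The control samples had 242, 237 and 283 CPM and the IL-1β samples 986, 914 and 911 CPM. The lowest IL-1β sample was thus far above the highest control. The means were 254 ± 25.0 CPM (SD, n = 3) and 937 ± 42.2 CPM (SD, n = 3), a fold change of 3.69 with a 95% interval of 3.33 to 4.09 (log2 fold change 1.88, standard error 0.0712, adjusted p = 4.4e-16 from edgeR). On the opposite strand the annotation has Gm17268, a gene that overlaps Ccl2 and is not among the rows used here, and whether the authors counted reads by strand is not given in the sources used here.

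Ccl7, a close relative of Ccl2 that binds CCR2 as well as CCR1 and CCR3, begins 10.1 kb further along the same strand, from 82045712 to 82047523. It had 4.98, 4.12 and 5.14 CPM in the controls and 29.1, 29.7 and 32.1 CPM after IL-1β, so that the samples within each group were close together and the groups apart. The fold change was 6.39, with a 95% interval of 5.07 to 8.05 (adjusted p = 2.9e-12 from edgeR). Counts of Ccl7 per 100 counts of Ccl2 were 2.06, 1.73 and 1.82 in the controls and 2.95, 3.25 and 3.52 after IL-1β. The ratio of the neighbours was therefore higher in every IL-1β sample, by 1.73-fold (two-sided p = 0.1 by exact permutation, which is as low as 3 samples against 3 can give).

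Ccl5, known as RANTES, attracts T cells and monocytes. It lies on the minus strand of chromosome 11 from 83525779 to 83530518. Its values were 48.7, 54.9 and 63.1 CPM in the controls and 372, 398 and 423 CPM after IL-1β, again with no overlap. The mean went from 55.5 ± 7.23 to 398 ± 25.2 CPM (SD, n = 3 per group), 7.17-fold with a 95% interval of 6.34 to 8.10 (log2 fold change 2.84, standard error 0.086, adjusted p = 5.0e-18 from edgeR). By log2 fold change it ranked 45 among the 11657 genes tested, with Ccl20 at 42, Ccl7 at 53 and Ccl2 at 95. Per 100 counts of Ccl2, there were 20.1, 23.1 and 22.3 of Ccl5 in the controls and 37.8, 43.5 and 46.4 after IL-1β, a ratio 1.94-fold higher (two-sided p = 0.1 by exact permutation).

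Ccl20, the ligand of CCR6 for dendritic cells and lymphocytes, lies on the plus strand of chromosome 1 from 83116766 to 83119167. It was near the limit of detection in the controls, with 4, 6 and 4 counts, and had 42, 33 and 24 counts after IL-1β. The IL-1β samples differed among themselves, but each lay above every control. In CPM this was 0.439 ± 0.0863 and 3.30 ± 1.13 (SD, n = 3 per group), 7.28-fold with a 95% interval of 3.52 to 15 (adjusted p = 0.0002 from edgeR). The interval of Ccl20 is the widest among the 5 genes that rose, and its size rests on 14 control counts in all.

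Cxcl16, the membrane-anchored ligand of CXCR6 and a scavenger receptor for oxidized lipoprotein, lies on the minus strand of chromosome 11 from 70454234 to 70459984. It had 115, 125 and 129 CPM in the controls and 216, 204 and 222 CPM after IL-1β. The groups did not overlap, and the change was the smallest of the 5 genes that rose, 1.74-fold with a 95% interval of 1.57 to 1.93 (log2 fold change 0.80, standard error 0.0721, adjusted p = 6.3e-09 from edgeR). Zmynd15, on the opposite strand, overlaps Cxcl16 in the annotation and was itself higher, at 3.63 ± 0.283 CPM in controls and 7.43 ± 0.648 CPM after IL-1β (SD, n = 3 per group, adjusted p = 0.00692 from edgeR). Reads of such a pair cannot be told apart where they overlap unless they are counted by strand. In the last 500 bases of Cxcl16 transcripts, 0% of the 75-base windows occurred in another gene's transcripts on the opposite strand. Bases further upstream were not searched.

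**Figure D2:**
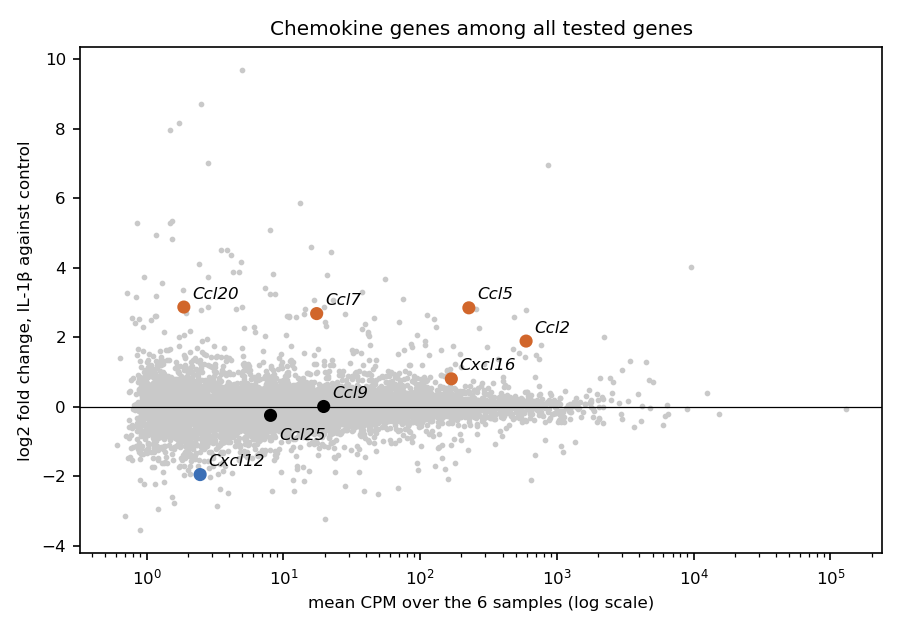
Log2 fold change, IL-1β against control, against the mean CPM over the 6 samples on a log axis, for all 11657 genes tested (grey), with the 8 tested chemokine genes in orange (higher), blue (lower) or black (not called). Ccl20, Ccl7, Ccl5 and Ccl2 lie above most genes of like abundance, Cxcl16 at 0.80, Cxcl12 at the lower edge, and Ccl9 and Ccl25 in the middle of the grey points.

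Cxcl12, which holds leukocytes and progenitors in their niches through CXCR4, was the only member that fell. It lies on the plus strand of chromosome 6 from 117168535 to 117181368. The controls had 37, 37 and 49 counts, and the IL-1β samples 18, 2 and 10. The highest IL-1β sample stayed below the lowest control, and the IL-1β samples ranged from 0.192 to 1.92 CPM, the lower of which is under the level of 3 counts. The mean was 3.91 ± 0.895 CPM in controls and 1.02 ± 0.869 CPM after IL-1β (SD, n = 3 per group), 0.257-fold with a 95% interval of 0.128 to 0.517 (log2 fold change -1.96, standard error 0.488, adjusted p = 0.00664 from edgeR). Without IL-1β replicate 2, the sample with 2 counts, the log2 fold change was -1.46 and the adjusted p 0.0544, so that the call was lost, and without IL-1β replicate 1 it was -2.75 at an adjusted p of 0.00266. Cxcl12 ranked 26 from the lowest log2 fold change among the genes tested.

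In the liver Cxcl12 is known from sinusoidal endothelial and stellate cells, and markers of those cells were detected in these samples. Of 8 endothelial markers, all tested, Clec4g and Kdr fell (log2 fold changes -2.87 and -1.49), Lyve1 rose (0.45), and 5 did not pass. In edgeR 4 of the 8 had an unadjusted p below 0.05, among them Stab2 (log2 fold change -1.16, adjusted p = 0.209). Every IL-1β sample of Stab2 was below every control, whereas every IL-1β sample of Cdh5 was above (0.32, adjusted p = 0.336 from edgeR). Clec4g had 72, 48 and 63 counts in the controls and 3, 7 and 14 after IL-1β. Its log2 fold change ran from -3.49 to -2.53 with a sample left out and was -1.96 by limma on log2(CPM + 1). The summed level of the 8 markers was 78.1 to 86.3 CPM in controls and 77.8 to 85.0 CPM after IL-1β. The most abundant were Eng, with means of 29.2 and 29.5 CPM, and Lyve1, with 18.8 and 25.8 CPM. Clec4g and Kdr, at 5.80 and 4.55 CPM in controls, weigh little in this sum. Of 9 stellate markers, the defining genes Lrat and Des had at most 7 counts in any library, whereas Dcn, which fibroblasts make too, had 161 to 226, and neither of the 2 that could be tested passed by edgeR, DESeq2 or limma, with 0 at an unadjusted p below 0.05 in edgeR. The part of these cells in the fall of Cxcl12 was not tested, and in such bulk samples fewer cells of a type and less RNA per cell cannot be told apart. The call of Lyve1 was lost with total-count scaling (adjusted p = 0.0507) and without any 1 of 4 libraries, up to an adjusted p of 0.137 without IL-1β replicate 2.

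Ccl9, a ligand of CCR1 that is found in rodents, and Ccl25, the ligand of CCR9 that guides T cells to the gut and thymus, gave no call. Ccl9 lies on the minus strand of chromosome 11 from 83572917 to 83578636, with 23.0, 16.1 and 20.1 CPM in controls and 19.8, 16.4 and 23.0 CPM after IL-1β. The values of the groups lie within each other, and the means were 19.7 ± 3.46 and 19.7 ± 3.27 CPM (SD, n = 3 per group). The 95% interval of the fold change ran from 0.801 to 1.25 (adjusted p = 0.997 from edgeR), so a change as large as that of Cxcl16 lies outside it.

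Ccl25 lies on the plus strand of chromosome 8 from 4325210 to 4360020. It had 8.08, 11.1 and 7.05 CPM in controls and 6.41, 9.13 and 6.51 CPM after IL-1β, with overlap of the groups. Its fold change of 0.839 had a 95% interval of 0.603 to 1.17 (adjusted p = 0.582 from edgeR), so that neither a fall to 0.603-fold nor no change lay outside it. Elavl1 overlaps Ccl25 on the opposite strand and had 56.7 ± 11.4 and 58.7 ± 3.82 CPM in the groups (SD, n = 3 per group).

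Cx3cl1, or fractalkine, the membrane-anchored ligand of CX3CR1, lies on the plus strand of chromosome 8 from 94772180 to 94782426. It had 0, 1 and 0 counts in the controls and 2, 7 and 3 after IL-1β, too few to enter the test. Each IL-1β sample lay above each control. The ratio of the summed counts, 12 against 1 and scaled for depth, was 12.5 with an exact 95% interval of 1.85 to 533 that covers counting error only. With no filter on low counts, edgeR gave a log2 fold change of 3.22 at an adjusted p of 0.275.

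Cxcl14, a constantly made chemokine of epithelia, lies on the minus strand of chromosome 13 from 56288643 to 56296551. The counts were 14, 5 and 4 in controls and 13, 4 and 8 after IL-1β. The groups overlapped, and 1 sample of each group had most of its counts. The count ratio was 1.13 with an exact 95% interval of 0.616 to 2.08, again for counting error only, so that neither a rise nor a fall was detectable at this depth.

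**Figure D3:**
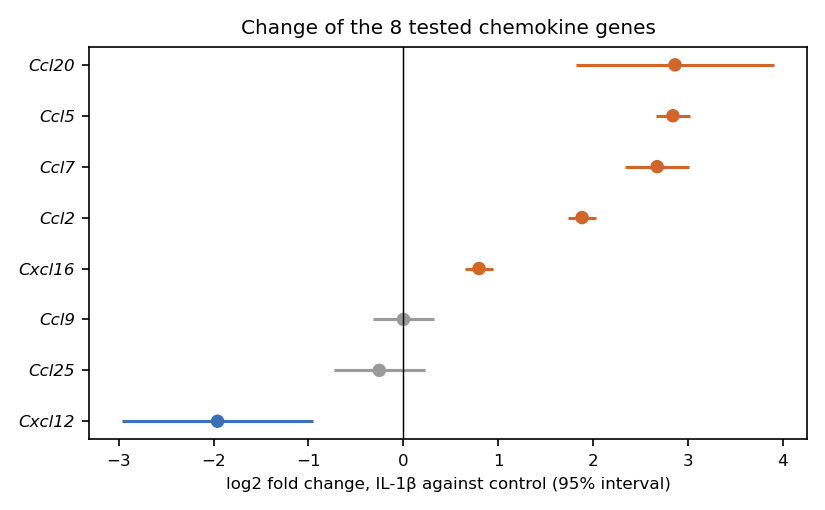
Log2 fold change, IL-1β against control, of the 8 chemokine genes that could be tested, as points with 95% intervals from edgeR, ordered by size, in orange (higher), blue (lower) or grey (not called). The intervals of Ccl20, Ccl5 and Ccl7 overlap, those of Ccl2 and Cxcl16 are narrow and above 0, those of Ccl9 and Ccl25 include 0, and that of Cxcl12 is below 0.

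As a sum, the 10 genes gave 447 to 513 CPM in the controls and 1580 to 1640 CPM after IL-1β. Shares of this sum are shares of reads, which were amplified by PCR and are not counts of molecules. Ccl2 made up 52.4% to 55.1% of the reads in the controls and 56.2% to 60.2% after IL-1β. Ccl5 went from 10.9% to 12.3% in controls to 22.7% to 26.1%, whereas Cxcl16, which had 25.2% to 27.5% in controls, had 12.9% to 13.7% after IL-1β although its own level was higher. Ccl9 had 3.56% to 5.15% in controls and 1.04% to 1.42% after IL-1β, at a level that was not called changed. All 4 shares lay apart between the groups.

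**Figure D4:**
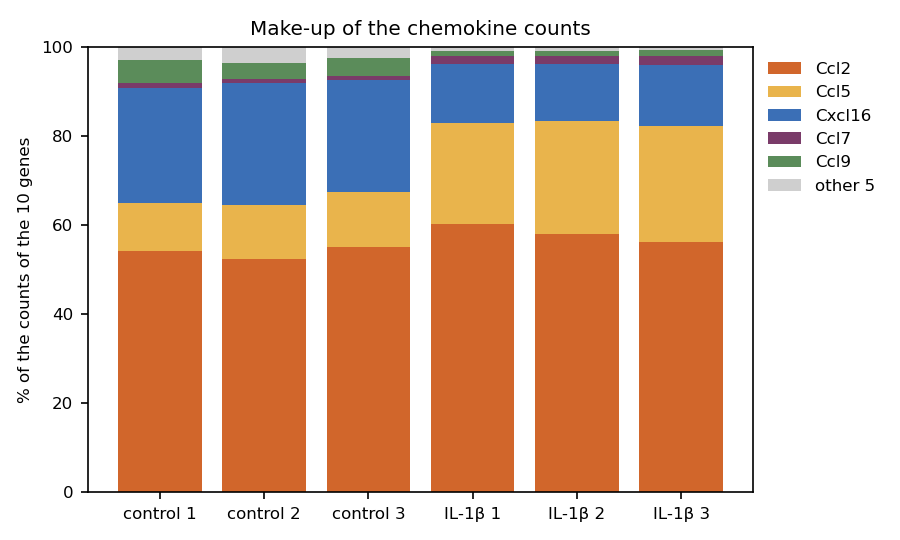
Share of each chemokine gene in the summed counts of the 10 genes, in percent, as stacked bars from 0 to 100 for each control and IL-1β sample. The segment of Ccl5 is wider in every IL-1β sample (22.7% to 26.1%) than in the controls (10.9% to 12.3%), and that of Cxcl16 is narrower.

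The CC genes of chromosome 11 stand in a pair of clusters. In the first, Ccl2 and Ccl7 rose, whereas Ccl11 and Ccl12, 22.3 and 66.3 kb from the start of Ccl2, had no count in any library, Ccl8 had 2 counts in each group, and Ccl1 had none. In the second, Ccl5 rose, and Ccl9, 47.1 kb away, did not pass the test. The next chemokine gene after Ccl9 is Ccl6, a closely related CCR1 ligand whose annotated interval begins 62.1 kb from that of Ccl5. Ccl6 had 48, 65 and 41 counts in the controls and 366, 439 and 449 after IL-1β, 8.46-fold (log2 fold change 3.08, standard error 0.152, adjusted p = 5.6e-14 from edgeR). The ratio of Ccl6 to Ccl9 counts was 0.196, 0.361 and 0.206 in controls and 1.98, 2.57 and 1.82 after IL-1β, so that Ccl9 had more counts in every control and Ccl6 in every IL-1β sample. The ratio was 8.59-fold higher (two-sided p = 0.1 by exact permutation), a pair chosen after its values were seen. Further on, Ccl3 had 12, 8 and 20 counts in controls and 32, 34 and 50 after IL-1β (log2 fold change 1.56, adjusted p = 0.0113 from edgeR), a call that was lost without control replicate 2 (1.27, adjusted p = 0.0751) or IL-1β replicate 3 (1.39, adjusted p = 0.09). Ccl4, 137 kb from Ccl5, had 0, 4 and 1 counts in controls and 7, 7 and 8 after IL-1β, too few to test.

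**Figure D5:**
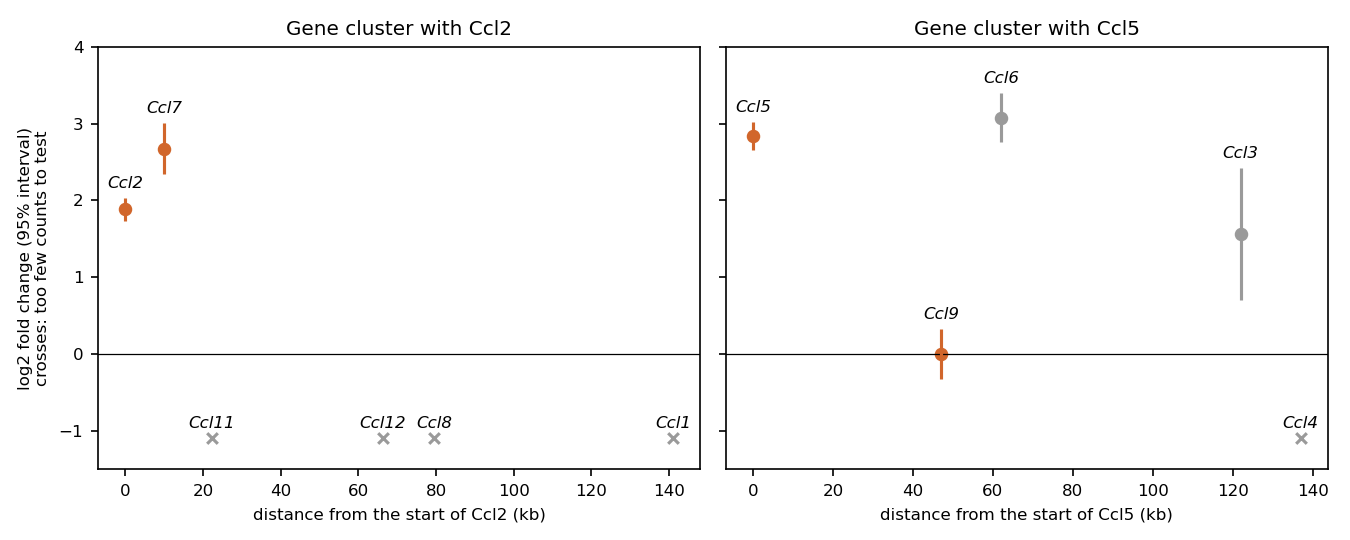
Log2 fold change, IL-1β against control, with 95% intervals from edgeR, for the CC chemokine genes of both chromosome 11 clusters, against the distance in kb from the start of the first gene. Members are orange, neighbours grey, and crosses at the foot mark genes with too few counts to test. Ccl9 lies at 0 between Ccl5 (2.84) and Ccl6 (3.08).

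Promoter windows from 250 bases before to 50 bases after the transcription start were given by RefSeq for GRCm38.p6 and held 6 of the 10 members, Ccl25 with 2 starts. Ccl2, Ccl5, Ccl7 and Cxcl16 had no window, so Ccl20 was the only member that rose whose window could be searched. Each was searched on both strands for the kappaB consensus, for the AP-1 motif TGANTCA and for the C/EBP motif TTNNGNAA. The windows of Ccl20, which rose, and of Ccl9, which did not pass, are shown because they were the ones with a match, which is in capitals. The window of Ccl20, chr1:83116516-83116815 on the plus strand, has 1 kappaB match at -80 from the start.
Ccl20: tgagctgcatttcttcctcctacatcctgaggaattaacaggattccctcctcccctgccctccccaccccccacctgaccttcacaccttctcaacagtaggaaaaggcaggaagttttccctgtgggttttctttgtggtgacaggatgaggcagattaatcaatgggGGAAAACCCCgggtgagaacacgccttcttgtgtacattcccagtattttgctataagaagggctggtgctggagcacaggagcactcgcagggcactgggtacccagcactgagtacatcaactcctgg
That of Ccl9, chr11:83578587-83578886 on the minus strand, has 1 kappaB match at -35 that overlaps 1 of 2 C/EBP matches, and an AP-1 match at -53.
Ccl9: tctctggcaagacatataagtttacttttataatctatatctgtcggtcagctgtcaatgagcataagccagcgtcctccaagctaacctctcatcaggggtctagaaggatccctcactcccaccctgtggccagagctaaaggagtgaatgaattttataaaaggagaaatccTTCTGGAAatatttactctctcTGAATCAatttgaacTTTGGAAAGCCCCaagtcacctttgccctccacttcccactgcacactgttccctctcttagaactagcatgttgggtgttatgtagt
The windows of Cxcl12, Ccl25, Cx3cl1 and Cxcl14 had no match to any of the 3 motifs, which says only that these letters are not in these windows. Over all 32851 promoter windows, 4.51% held a kappaB match, 7.81% an AP-1 match and 40.7% a C/EBP match. A kappaB match was thus present in a gene that rose and in a gene whose level was not called changed, and the matches are letters, not measured binding.

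Some cytokine mRNAs carry AU-rich elements in the 3′ UTR, which mark them for rapid decay. The octamer UUAUUUAU was found once each in the 3′ UTRs of Ccl20 and Cx3cl1 and in no other member. Of 21877 genes with an annotated coding transcript, with or without a 3′ UTR, 12.0% carry it there. Ccl20 and Cx3cl1 were also the members with the fewest control counts, 14 and 1 in all, a description of 2 genes. The annotated 3′ UTRs ranged from 199 bases in Ccl5 to 2768 in Cxcl12.

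Of 28 other chemokine ligands, 11 could be tested, with a median log2 fold change of 1.56. Of these, 8 rose and 1 fell, beside 6.97% and 6.44% of all genes tested. The neutrophil attractants Cxcl5 (6.95), Cxcl2 (3.68) and Cxcl3 (4.44) and the CC ligand Ccl6 (3.08) had the smallest adjusted p. Cxcl10, an interferon-induced ligand of CXCR3, fell from 27.2 ± 4.15 to 12.3 ± 1.04 CPM (SD, n = 3 per group, log2 fold change -1.14, adjusted p = 2.6e-06 from edgeR). Another 11 rows of the list had no count in any library.

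The receptors of these chemokines were mostly at or near 0 in the same samples. Among 23 chemokine receptors, 16 had under 10 counts in every library, and Ccr2 and Ccr6, the receptors of Ccl2 and Ccl20, had none in any. Ccr1 had 1 count in a single library, and Cxcr6, the receptor of Cxcl16, had 1 count in a single library of each group. Cx3cr1, the receptor of Cx3cl1, had 3, 6 and 8 counts in controls and 2, 8 and 5 after IL-1β. Cxcr4, the receptor of Cxcl12, had 2, 14 and 7 counts in controls and 9, 9 and 15 after IL-1β, with overlap of the groups.

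Only Ccr9, Ccrl2 and Cxcr5 could be tested, and none passed by edgeR, DESeq2 or limma, with 0 of the 3 at an unadjusted p below 0.05 in edgeR. Ccr9, the receptor of Ccl25, had 12, 9 and 22 counts in controls and 19, 28 and 31 after IL-1β (log2 fold change 0.89, adjusted p = 0.237 from edgeR). Ccrl2, which presents rather than transmits its ligand, had a log2 fold change of 0.58 and Cxcr5 of 0.24, the latter with the sign turned without control replicate 2, at -0.07. Among the atypical receptors that take up chemokines, Ackr2 had 7, 2 and 5 counts in controls and 0, 1 and 0 after IL-1β, Ackr3 3, 8 and 2 against 3, 11 and 10, Ackr4 1, 5 and 4 against 3, 1 and 0, and Ackr1 at most 4 in any library.

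Of 20 genes for proteases that cut chemokines and for partners and inhibitors of ADAM17, 13 could be tested. Of these, 4 rose and 5 fell, beside 6.97% and 6.44% of all genes tested. Adam17, a protease that sheds Cx3cl1 and is known to act on Cxcl16, rose, with 89.1 ± 0.323 CPM in controls and 126 ± 10.6 CPM after IL-1β (SD, n = 3 per group; log2 fold change 0.50, adjusted p = 5.3e-05 from edgeR). Adam10, also of the ADAM family, was not called (log2 fold change 0.255, adjusted p = 0.111 from edgeR), although every IL-1β sample lay above every control. Cpd, a carboxypeptidase, rose (0.91) as did Mmp12 (1.27) and the protease inhibitor Timp1 (1.21). Cpn1 and Cpn2, the catalytic and regulatory subunits of carboxypeptidase N, which the liver secretes into plasma, both fell, by 0.51 and 1.44 on the log2 scale. Dpp4, which trims the amino end of Ccl5 and Cxcl12 among others, fell by 0.82 on the log2 scale (adjusted p = 0.0112 from edgeR), a call lost without IL-1β replicate 1 (adjusted p = 0.0662) or IL-1β replicate 2 (adjusted p = 0.103). Timp3, an inhibitor of ADAM17, at -0.96, and Mmp14, at -0.25, also fell, and each call was lost without any 1 of 3 libraries, with an adjusted p of up to 0.149 for Timp3 without IL-1β replicate 1 and 0.171 for Mmp14 without IL-1β replicate 2. Calls for Timp3 also went without control replicate 2 (0.107) and IL-1β replicate 3 (0.118), and those for Mmp14 without control replicate 2 (0.167) and IL-1β replicate 1 (0.119).

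Heparan sulfate on cell surfaces holds secreted chemokines in place. Of 23 genes for its core proteins and synthesis, 18 could be tested. Of these, 2 rose and none fell by edgeR, DESeq2 or limma, with 4 at an unadjusted p below 0.05 in edgeR. The 2 are 11.1% of those tested, near the 6.97% called higher over all genes. They were the core protein Sdc4 and the chain polymerase Ext1. Sdc4 went from 127 ± 3.53 to 177 ± 13.3 CPM (SD, n = 3 per group, log2 fold change 0.48, adjusted p = 3.3e-05 from edgeR). Ext1 went from 117 ± 19.3 to 169 ± 8.41 CPM (0.53, adjusted p = 0.00016 from edgeR). Sdc1, the main syndecan of hepatocytes, was at -0.23 on the log2 scale (adjusted p = 0.113 from edgeR), which passed at 0.0391 with total-count scaling, and Extl3 one of 0.23 (adjusted p = 0.19).

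The hepatocyte label was checked against its markers. Alb had 126055 to 183379 counts in each library and Ttr 9623 to 14980. Cps1 had only 18 to 33, Tat 5 to 43 and Ass1 3 to 13. By edgeR, 7 of 9 tested hepatocyte markers fell after IL-1β, beside 6.44% of all genes tested, with a median log2 fold change of -0.35 over the 9. DESeq2 called 6 of the 9 lower and limma 5. Apoa1, 1 of the 7, had overlapping groups (adjusted p = 0.0412 from edgeR). Macrophages also make Ccl2, Ccl7, Ccl9 and several other members, and their markers were present: Cd68 had 1673 to 2276 counts, Clec4f, which marks Kupffer cells, 0 to 27, and Timd4 at most 1. None of the 12 tested macrophage markers was called in either direction by edgeR, DESeq2 or limma, but 3 had an unadjusted p below 0.05 in edgeR and all 3 were higher after IL-1β. These were Cd74 (log2 fold change 0.56, adjusted p = 0.0658, and 0.0235 without control replicate 1), Marco (0.67, adjusted p = 0.141) and C1qa (0.75, adjusted p = 0.211). Cd5l went the other way, from 19.9 ± 0.627 to 17.2 ± 1.36 CPM (SD, n = 3 per group, adjusted p = 0.392 from edgeR). Every IL-1β sample of Cd5l was below every control. Clec4f, with too few counts to test, had 4, 27 and 7 in controls and 6, 0 and 9 after IL-1β. The summed level of all 15 markers was 252 to 282 CPM in controls and 257 to 291 CPM after IL-1β, most of it from Cd68, with 192 ± 17.4 and 184 ± 12.3 CPM (SD, n = 3 per group). The part of macrophages in the levels of the members was not tested. Markers of T, NK and B cells, which are known for Ccl5, had at most 1 count in any library over 9 genes. Among 5 neutrophil markers in the table, S100a8 had 0 counts in each control and 19, 36 and 51 after IL-1β, at least 36.7-fold higher against a floor of 3 counts over the group, while S100a9, Retnlg and Mpo had none in any library. Of 6 cholangiocyte markers, Krt7, Krt19 and Epcam had at most 6 counts in any library, and Spp1, which other cells make too, fell by 1.20 on the log2 scale. Sox9 had 1367 to 1703 counts and a log2 fold change of 0.21 (adjusted p = 0.0519 from edgeR), with every IL-1β sample above every control, and was called higher by DESeq2 and by limma on log2(CPM + 1).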

How the data were processed

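RNA from primary mouse hepatocytes, control and IL-1β at 24 h, was sequenced by QuantSeq with single-end reads of 75 bases. Per the labels, Bowtie2 was the authors' aligner and edgeR their normalization tool, on GRCm38 (mm10). The counting tool and the handling of strand are not given in the sources used here. The deposited table holds raw counts per gene for 23282 genes, which were used, beside the authors' own normalized values, fold changes and p-values, which were not. Groups came from the sample labels.

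The raw counts were tested with edgeR 4.0.16 under R 4.3.3 (filterByExpr, TMM, quasi-likelihood test, Benjamini-Hochberg adjustment over 11657 genes). Beforehand, the same edgeR steps, written out separately, were run on simulated counts with the same dispersion for every gene. Permutation tests and exact intervals (95%) used scipy 1.17.1 in Python 3.11.15. Libraries held 9538741 to 11105408 counts, and intervals on counts and the floor of 3 counts cover counting error only. Rn45s, a ribosomal RNA precursor, took 11.7% to 14.2% of the counts. No pair of replicates was as close as counting error alone would make it (chi-square per gene 4.16 to 10.1).

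The genes named are the 10 members, up to 4 of each pathway list with the smallest adjusted p, up to 4 abundant markers of each cell type, and receptors of the members. Others, among them Ccl3, Cxcl10, Cpn2, Dpp4, Timp1, Timp3, Mmp14, Zmynd15, Elavl1, Clec4f, Timd4, Marco, C1qa, Clec4g, Kdr and S100a8, were chosen after their values were seen. So were Adam10, Cps1, Tat, Ass1, Stab2 and Ccl4. A gene that the rule selects is not reported here. The members and lists were chosen with earlier results of these data known. Sequences came from RefSeq and GENCODE on GRCm38. Alternatives were DESeq2 1.42.0, limma 3.58.1 on log2 CPM, other scalings and filters, the replicate number as a block, and leaving out each sample.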

Additional observations from a re-analysis of the deposited data

How the results depend on the processing

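Over all genes, 1488 to 1728 were called under the other settings with all samples and 1131 to 1596 with a sample left out. The 5 members that rose were called with every sample left out in turn and in every setting that tested them. With at least 10 counts in every sample, Ccl20 and Cxcl12 could not be tested, so 4 members were called higher and 0 lower. With a sample left out, 0 to 1 members were called lower. The log2 fold change of Ccl9 turned to -0.0271 with upper-quartile scaling and -0.0529 with total counts, and ranged from -0.124 to 0.129 with a sample left out. That of Cxcr5 ranged from -0.0722 to 0.694. None of these passed the test. On log2(CPM + 1), which understates low genes, the log2 fold change was 1.55 for Ccl20 and -1.36 for Cxcl12. The cause of these shifts was not tested.

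The replicate numbers are shared by the groups. With the number as a replicate block, edgeR called 1671 genes and the same number of members, 5 higher and 1 lower. Same-numbered samples deviated from their group means with correlations of 0.075, 0.027 and -0.005, so they were not treated as pairs. Cx3cl1, Cxcl14 and most receptors had too few counts to test at these depths.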

Other observations

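Of the other chemokine ligands, Ccl24 and Pf4, both near 0 in the controls, had counts after IL-1β, and were chosen after their values were seen. Ccl24, a ligand of CCR3 for eosinophils, had 0 counts in each control and 7, 25 and 17 after IL-1β, at least 17-fold higher against a floor of 3 counts over the group, with an exact 95% lower limit of 13.3 for the count ratio that covers counting error only. It had too few counts to enter the test, and with no filter on low counts edgeR gave an adjusted p of 7.82e-06. Pf4, a CXC chemokine known from platelets and also made by macrophages, had 2, 0 and 1 counts in the controls and 30, 25 and 36 after IL-1β (log2 fold change 4.81, adjusted p = 1.3e-05 from edgeR). The log2 fold change of Pf4 was 4.25 to 5.65 with a sample left out and 1.86 by limma on log2(CPM + 1). Its size rests on 3 control counts in all. Ppbp, its neighbour in function and another platelet chemokine, had no count in any library.

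The CXCR3 ligands, which are known as interferon-induced genes, did not share a direction. Cxcl9 rose, with 22.7 ± 3.87 CPM in controls and 31.6 ± 1.40 CPM after IL-1β (SD, n = 3 per group; log2 fold change 0.48, adjusted p = 0.0126 from edgeR), a call lost without control replicate 2 (adjusted p = 0.0955) or IL-1β replicate 3 (adjusted p = 0.0727). Cxcl10 fell, with 338, 291 and 235 counts in controls and 107, 140 and 129 after IL-1β. Cxcl11 had 14, 30 and 10 counts in controls and 7, 7 and 1 after IL-1β, which did not pass (log2 fold change -1.74, adjusted p = 0.0721).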
